A study of Mus musculus with 33 samples.

Results

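Border-associated macrophages of the mouse brain were described here in 8 samples, 4 sorted as biotin positive and 4 as biotin negative. The cells were chosen by their own marker counts: a cell entered the gate with at least 1 UMI (a counted RNA molecule) for at least 3 of Mrc1, Pf4, Lyve1, Cd163, Cbr2 and Folr2, and with fewer than 3 of the microglia genes Gpr34, P2ry12, Tmem119, Sall1 and Sparc detected. The gate held 777 of 9665 kept brain cells, and the whole intracardiac part of the series held 55366 kept cells. All brain samples came from mice given an intracardiac injection and then the labelling substrate overnight. SAMENT, the method named in the labels, marks cells near the injected tumour cells with biotin by means of a sortase enzyme, so both sorts came from injected mice and no uninjected brain was analysed here. The sources used here do not give the strain, age or sex of the mice, the injected tumour line, or whether animals were pooled. Nothing in the labels says that the samples of a group came from separate animals, so p-values measure the spread between these samples only.

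Border-associated macrophages are the resident macrophages of the brain's boundaries, the meninges, the spaces around vessels and the choroid plexus. They differ from microglia, the macrophages inside the brain tissue, in position, origin and gene use, and are known for scavenger receptors, uptake of material from the cerebrospinal fluid and, in part of the population, antigen presentation through MHC class II. Dissociation can free them together with other leukocytes, such as blood cells left in the vessels, so the labels' word brain covers leukocytes as well. Where the leukocytes of these samples came from was not tested.

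Of the 6 gate markers, Mrc1 encodes the mannose receptor and lies at chr2:14229392-14332057 on the plus strand. Pf4, the platelet factor 4 chemokine that these macrophages also make, lies at chr5:90772435-90773383 on the plus strand. Lyve1, a hyaluronan receptor, lies at chr7:110850607-110863239 and the folate receptor gene Folr2 at chr7:101839988-101857194, both on the minus strand. Cd163, the haptoglobin-haemoglobin scavenger receptor, lies at chr6:124304656-124330527 on the plus strand, and the carbonyl reductase gene Cbr2 at chr11:120729489-120732114 on the minus strand. These are whole gene spans of GENCODE on GRCm38, the build that the submitters' processing notes name as mm10.

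The 4 positive samples gave 171, 458, 21 and 57 gate cells, and the 4 negative samples 7, 36, 14 and 13. Their median depth was 3932 UMIs per cell. Mrc1 had a UMI in 99.2% of gate cells (95% exact binomial interval 98.3 to 99.7%), Pf4 in 92.3%, Cd163 in 83.0%, Lyve1 in 71.3%, Cbr2 in 67.4% and Folr2 in 38.7%. These shares chose the cells and are given as a description. In T and B cells of the same samples, which should lack the genes, had a median of 2640 UMIs and passed neither rule, Mrc1 had a UMI in 3.48% and Pf4 in 3.31%. That background was uneven: Mrc1 reached 11.5% of these cells in positive 2 and 15.9% in negative 2. Of all cells with T or B cell markers, 5 of 31 in positive 2 and 4 of 59 in positive 1 passed the gate, and at most 1 did in any other sample. Intervals cover counting error only.

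Gate cells differed in how many markers they showed. Exactly 3 markers were found in 180 gate cells, 4 in 198, 5 in 214 and all 6 in 185. Cells at the threshold of 3 markers were 27.5%, 17.2%, 28.6% and 26.3% of the gate in positive 1 to 4 and 28.6%, 58.3%, 50% and 23.1% in negative 1 to 4, so negative 2 and 3 were high and the other 2 negative samples lay within the positive range. Just inside the threshold Lyve1 had a UMI in 21.7% of the 180 cells, and just outside it, in the 227 cells with exactly 2 markers, in 7.93%. Summed over the gate, Mrc1 stood at 3818, 3708, 2248 and 2292 CPM, UMI counts scaled to an equal total in every sample, in positive samples 1 to 4 and at 401, 1467, 1390 and 1262 CPM in negative samples 1 to 4. Every positive sample thus lay above every negative one in the level of a gene that had chosen the cells.

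The 7 gate cells of negative 1 went against the label. Their RNA was led by neutrophil genes, with S100a8 at 54846 and S100a9 at 69931 CPM, and Apoe reached 3798 CPM against 16377 to 43897 CPM in the other 7 samples. Negative 1 therefore counts as cells passing the rule, and enters no gene-level comparison except the alternative that lowered the minimum of 10 cells per sample.

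Markers of other cell types in the gate are given by the summed level of each 8-gene list. In the positive samples neutrophil genes summed to 25574, 9071, 4300 and 23640 CPM, and in negative 2 to 4 to 19814, 14086 and 2727 CPM. T and B cells of the 8 samples, which should lack them, held 1602 to 48256 CPM. Classical monocyte genes summed to 410 to 1349 CPM in the positive and 1950 to 3220 CPM in these negative samples, without overlap. T and B cells held 4519, 679, 1180 and 601 CPM of the same list in positive 1 to 4. In negative 2 to 4 they held 1642, 1214 and 2493 CPM, more than in positive 2 to 4. T cell genes reached at most 183 CPM, platelet genes 35.9 CPM and erythroid genes 20.4 CPM over these 7 samples, with the erythroid genes Alas2 and Slc4a1 at 0 in every positive sample. Meningeal fibroblast genes, mostly the prostaglandin D synthase gene Ptgds, summed to 429 and 652 CPM in positive 1 and 2 and to 0 and 71.9 CPM in positive 3 and 4. Over the same 7 samples nonclassical monocyte genes reached at most 838 CPM, B cell genes 841 CPM, dendritic cell genes 482 CPM, endothelial genes 330 CPM and NK cell genes 184 CPM. Genes of oligodendrocytes, choroid plexus and ependyma, astrocytes, epithelia, neurons and pericytes stayed at or below 145 CPM per list. The part of these RNAs in the results below was not tested beyond the alternatives named there.

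The first comparison asked how often the biotin sort held border macrophages. They made up 31.0%, 67.9%, 6.77% and 8.52% of kept cells in positive 1 to 4, and 0.342%, 2.47%, 1.28% and 0.455% in negative 1 to 4. Every positive sample lay above every negative one, and the positive sample was the higher in 4 of 4 same-numbered pairs. The means were 28.5% ± 28.4 (SD, n = 4) and 1.14% ± 0.983 (SD, n = 4), with a two-sided exact permutation p = 0.0286, the smallest that 70 assignments allow, and 0.0571 after Benjamini-Hochberg adjustment over 4 share tests, which misses 0.05. Paired by replicate number, the difference of 27.4 percentage points had an exact sign-flip p = 0.125, the smallest that 4 pairs allow. With all cells thinned to 2000 UMIs the positive shares were 26.4%, 65.7%, 5.51% and 6.38%, and the negative ones 0.168%, 1.66%, 0.921% and 0.296%.

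**Figure D1:**
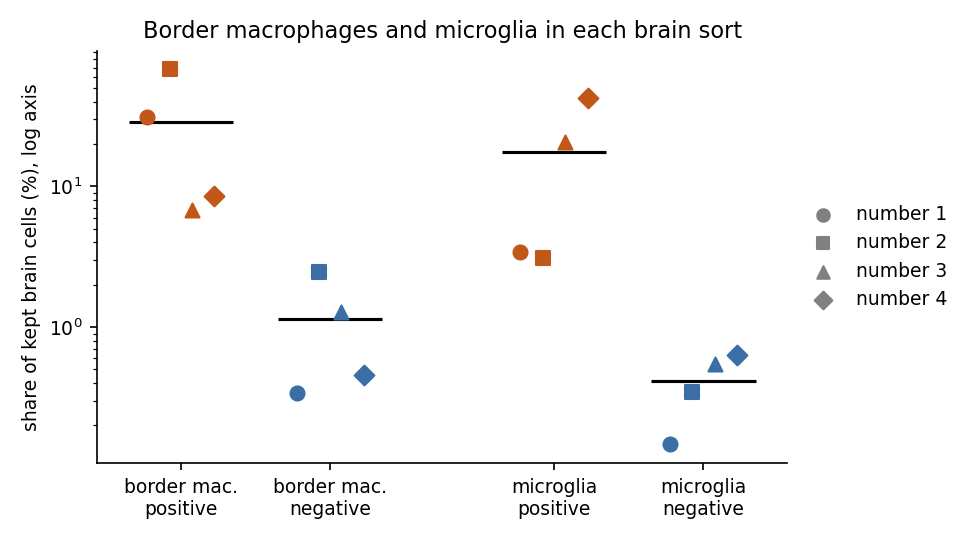
Share of kept brain cells (%, log axis) that passed the border macrophage rule or the microglia rule in each sample, by biotin sort; symbols give the replicate number and lines the mean of 4 samples. Positive 1 and 2 were rich in border macrophages (31.0% and 67.9%) and positive 3 and 4 in microglia (20.6% and 42.6%).

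The positive samples differed among themselves in which brain macrophage they held. Microglia, cells with at least 3 of the 5 microglia genes and fewer than 3 of the 6 markers, made up 3.44%, 3.11%, 20.6% and 42.6% of positive 1 to 4 and at most 0.630% of any negative sample. Of the cells in either class, border macrophages were 90.0%, 95.6%, 24.7% and 16.7% in positive 1 to 4, and 70.0%, 87.8%, 70.0% and 41.9% in negative 1 to 4. The means of 56.7% ± 41.8 (SD, n = 4) and 67.4% ± 19.0 (SD, n = 4) overlapped widely (two-sided exact permutation p = 0.771, also after adjustment). The negative shares rest on only 3, 5, 6 and 18 microglia in negative 1 to 4. They also count the 7 gate cells of negative 1 that went against the label. Neutrophil genes summed to 150231 CPM in the 5 microglia of negative 2. Without positive 4 the difference of -10.7 percentage points became 2.67. Only 12 brain cells passed both sets of thresholds.

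Beside microglia of the same sample, gate cells carried further genes known from border macrophages that the rule did not name. This is a description without a test, since the rule used that contrast, and it covers the 5 samples with at least 10 cells of each class (positive 1 to 4 and negative 4). All 22 other listed border macrophage genes had a higher value than in microglia in all 5 samples, Apoe in negative 4 by a log2 ratio of 0.013, and 13 of 14 other listed microglia genes were lower. Over the 1766 genes outside the rule above 100 CPM in either class, 309 were higher and 428 lower in all 5 samples.

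F13a1 and Clec10a had the highest median ratios to microglia. F13a1, the factor XIII A chain, stood at 1621, 1932, 1728 and 1666 CPM in positive 1 to 4 and 1320 CPM in negative 4, against 0.617 to 56.2 CPM in microglia (median log2 ratio 5.82, with 10 CPM added to both levels). Clec10a, a galactose-binding lectin, stood at 650, 551, 211 and 909 CPM in the positive samples and 479 CPM in negative 4, and microglia had none in any of the 5. Dab2, an endocytic adaptor, ranged from 450 to 1358 CPM against 11 to 64.2 CPM. The scavenger receptor Stab1 was closer, at 290 to 1069 CPM against 88.3 to 324 CPM. Cd209f, a C-type lectin, stood at 202, 43.9, 126 and 452 CPM in the positive samples and 102 CPM in negative 4, with none in microglia, so positive 4 had the most and positive 2 the least.

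Several secreted factors were higher than in microglia in all 5 samples. Ccl24, an eosinophil attractant, was even over the positive samples at 531, 588, 604 and 520 CPM, and reached 1044 CPM in negative 4, against at most 8.64 CPM in microglia. Gas6, the bridging ligand of the TAM receptors, stood at 486, 349, 337 and 376 CPM in positive 1 to 4 and 218 CPM in negative 4, against 22.0 to 88.3 CPM. Its receptor Mertk was lower than in microglia in all 5 samples, at 189 to 306 against 388 to 503 CPM. Ccl7 and Ccl8, attractants of monocytes, and the secreted glutathione peroxidase Gpx3 were also among the 12 genes with the highest ratio, together with Ms4a7, Vcam1, the complement gene C4b, the fatty acid receptor Cd36 and the lectin Clec4n.

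Apoe, the lipid carrier, stood at 43897, 37431, 33765 and 33709 CPM in positive 1 to 4, against 6392 to 16226 CPM in microglia of the 5 samples, and at 16377 CPM in negative 4, where the log2 ratio was 0.013. The transcription factor Maf was at 3355, 2355, 2375 and 2398 CPM in positive 1 to 4 and 1364 CPM in negative 4, against 407 to 666 CPM in microglia. Apoe was therefore higher than in microglia in the positive samples and level with it in negative 4.

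**Figure D2:**
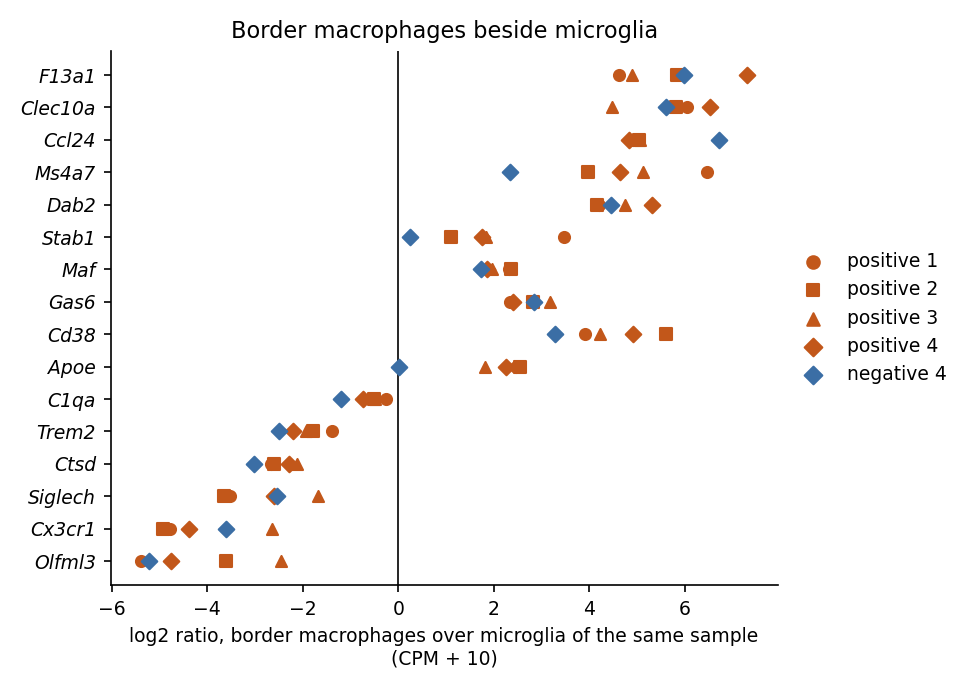
Log2 ratio of the summed level in border macrophages over that in microglia of the same sample (CPM with 10 added), 1 point per sample for positive 1 to 4 and negative 4. Genes from F13a1 to Cd38 lie to the right of 0 in all 5 samples and genes from C1qa to Olfml3 to the left, while Apoe in negative 4 lies at 0.013.

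Genes of microglial identity were low in the gate without being absent. The fractalkine receptor Cx3cr1 stood at 79.9, 56.2, 450 and 114 CPM in positive 1 to 4 against 2012 to 2845 CPM in microglia of the 5 samples. Positive 3 had the highest level of these 4. The metalloprotease gene Adamts1 (at most 6.40 CPM against 241 to 967 CPM), Plxdc2, Serpine2, Olfml3, Nav3, Selplg, Cd9, Lag3, Cd34 and Csf1 were, like Cx3cr1, among the 12 genes lowest against microglia. Fcrls was nearer to it, at 218 to 504 CPM against 363 to 907 CPM. Of the genes in the rule itself, Gpr34 had a UMI in 27.8% of gate cells, P2ry12 in 24.8%, and Sall1, a transcription factor of microglia, in 0 of 777, which allows a share of cells with a UMI of up to 0.386% (3 counts of the total).

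Of 16 complement genes 5 were higher and 4 lower than in microglia in all 5 samples. Over the 1766 genes outside the rule above 100 CPM, 309 were higher and 428 lower. The list counts here are descriptions to be read beside that share. C1qa, part of the first complement component, stood at 6195, 5894, 5325 and 5772 CPM in positive 1 to 4 and at 4469, 3843 and 3815 CPM in negative 2 to 4, below microglia in each of the 5 samples (7455 to 9684 CPM). Of 18 lysosome and cathepsin genes 7 were lower than in microglia in all 5 samples and 3 higher. The aspartic protease Ctsd showed a wide gap, at 667 to 1433 CPM against 5496 to 7439 CPM. Trem2, a lipid-sensing receptor, stood at 649, 332, 379 and 482 CPM in positive 1 to 4, below microglia at 1176 to 2275 CPM. Iron storage and haem genes leaned the other way, with 6 of 14 higher than in microglia in all 5 samples and none lower in all 5. Among them the ferritin light chain Ftl1 stood at 4747, 6350, 3555 and 6191 CPM in positive 1 to 4.

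Positive 1 stood apart from the other positive samples in inducible genes. Immediate early genes code for the transcription factors and regulators that a cell makes within minutes of a stimulus, and heat shock genes for its stress chaperones. The 20 genes of this list summed to 8662 CPM in positive 1 and to 39372, 34608 and 38268 CPM in positive 2 to 4, and 16 of the 20 had their lowest positive value in positive 1. Fos stood at 1223 CPM against 5918, 5522 and 6407 CPM, and Atf3 at 91.3 CPM against 2090, 2501 and 1611 CPM. The heat shock gene Hspa1b went the other way, at 248 CPM against 34.7, 28.1 and 16.9 CPM.

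In microglia of the same samples positive 1 was again the lowest, with 11556 CPM against 31701 to 37317 CPM in positive 2 to 4. T and B cells did not, with 6719 CPM in positive 1 and 6142 to 8533 CPM in the others. Cells passing the same gate in liver had 4102 CPM in positive 1 and 11241 and 10119 CPM in positive 2 and 3, and those in bone 7835 and 15667 CPM in positive 1 and 2. In lung, positive 1 was the highest, at 11278 CPM against 9886 and 6320 CPM in positive 2 and 4. Negative 1 had too few gate cells for a comparison within number 1.

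Chemokine genes followed the same pattern. The 17 listed genes summed to 3508 CPM in positive 1 and to 20790, 31039 and 13790 CPM in positive 2 to 4, and 12 of them were lowest in positive 1. Ccl2, the main monocyte attractant, stood at 222, 3264, 3920 and 1311 CPM, and Ccl7 at 186, 2482, 4272 and 1104 CPM. Cxcl1 and Cxcl2, which attract neutrophils, stood at 14.7, 565, 534 and 309 CPM and at 199, 5324, 8908 and 2161 CPM. Microglia were lower in positive 1 too, at 3595 CPM against 9082 to 15098 CPM. T and B cells summed to 775 CPM in positive 1 against 4546 to 6724 CPM, mostly through Ccl5, a chemokine of T cells (254 CPM against 3064 to 4746 CPM), and 2 of the 17 genes were lowest in positive 1 there. T cell genes in these cells summed to 803 CPM in positive 1 and to 2749 to 3375 CPM in the others.

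**Figure D3:**
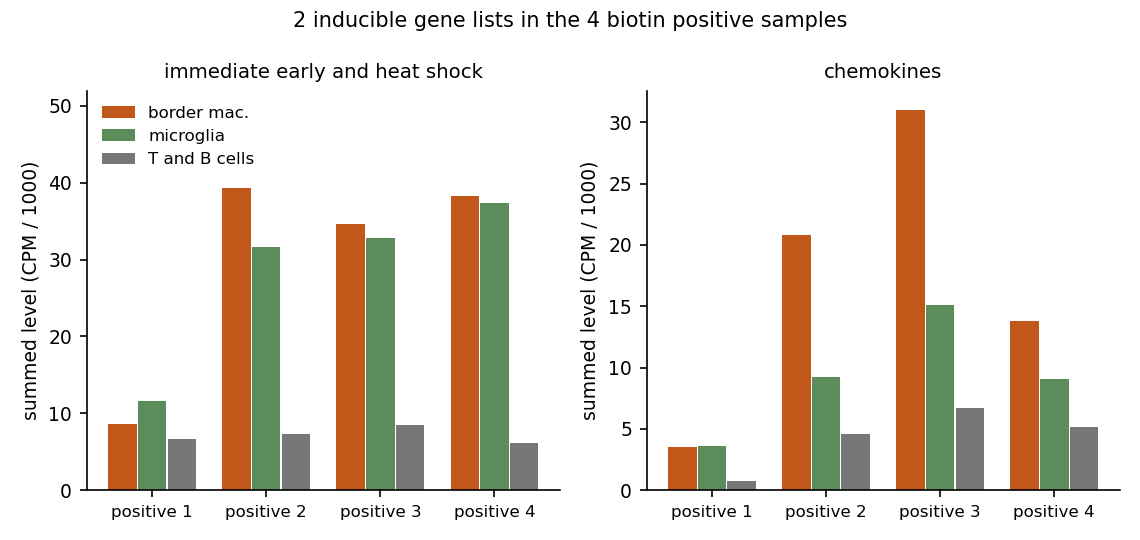
Summed level (CPM divided by 1000) of the 20 immediate early and heat shock genes and of the 17 chemokine genes in border macrophages, microglia and T and B cells of the 4 biotin positive samples, 1 bar per sample and cell class. Positive 1 is lowest in border macrophages and microglia for both lists, with 8662 against 34608 to 39372 CPM for immediate early genes in border macrophages.

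Since Cxcl1 and Cxcl2 were both low in positive 1, their promoters are shown, the 250 bases before the start on the plus strand of chr5 (RefSeq, GRCm38.p6). Capitals mark matches to the NF-kB element, read as GGGA, any 2 bases and TTCC on either strand, where 2 overlapping matches join into the same run of letters in both genes.
Cxcl1, chr5:90890995-90891244: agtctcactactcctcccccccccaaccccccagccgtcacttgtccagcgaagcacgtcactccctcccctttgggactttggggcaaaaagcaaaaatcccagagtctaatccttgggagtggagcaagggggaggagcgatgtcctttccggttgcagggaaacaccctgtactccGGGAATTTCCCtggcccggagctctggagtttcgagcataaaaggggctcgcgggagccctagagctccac
Cxcl2, chr5:90903649-90903898: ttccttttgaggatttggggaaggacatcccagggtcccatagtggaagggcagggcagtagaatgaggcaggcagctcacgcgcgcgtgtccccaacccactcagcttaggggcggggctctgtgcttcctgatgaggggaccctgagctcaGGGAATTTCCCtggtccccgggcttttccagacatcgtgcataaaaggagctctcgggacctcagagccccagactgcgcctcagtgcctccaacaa
This element was found in 3 of the 11 chemokine promoters in the table (Cxcl1, Cxcl2 and Cxcl10), in 0 of 17 immediate early and heat shock promoters, and in 1.17% of all 27025 promoters of that length. The AP-1 element TGANTCA was found in 2 of the 11 and 0 of the 17, and in 6.87% of all, and the cyclic AMP response element TGACGTCA in 0 and 2, and in 1.62% of all. These matches are descriptions of letters and show no binding.

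Other chemokines and secreted factors belonged to particular samples. Cxcl9, a T cell attractant induced by interferon gamma, stood at 321 CPM in positive 1, 16 CPM in positive 2 and 0 in positive 3 and 4. Cxcl13, the B cell attractant, stood at 478 and 584 CPM in positive 3 and 4, and at 0 and 2.74 CPM in positive 1 and 2. Its level in T and B cells was 586 CPM in positive 3, more than in the gate there, and 0 in positive 4. Spp1, osteopontin, stood at 108, 1077, 14.1 and 12.7 CPM in positive 1 to 4, so that positive 2 was alone at a high level among the positive samples. In negative 2 to 4 Spp1 stood at 740, 286 and 14.5 CPM, so negative 2 was high as well. The interferon-stimulated gene Ifi27l2a was highest in positive 3, at 3035 CPM against 316, 1017 and 825 CPM in positive 1, 2 and 4. The labels give the 4 positive samples no further difference.

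Cells with signs of division were few. With at least 4 of 16 cell cycle genes detected, 5 of the 707 positive gate cells and 2 of the 70 negative ones passed. Oestrogen receptor RNA was near the floor: Esr1 stood at 11.4, 7.77, 0 and 8.46 CPM in positive 1 to 4, while Esr2, Gper1, Pgr and Greb1 had no UMI in any positive sample. The glucocorticoid receptor gene Nr3c1 stood at 187, 108, 239 and 178 CPM.

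MHC class II was read per cell as at least 2 of H2-Aa, H2-Ab1 and H2-Eb1 with a UMI after thinning to 2000 UMIs. It was found in 8 of 132 gate cells in positive 1 (6.06%), 15 of 394 in positive 2 (3.81%), 3 of 17 in positive 3 (17.6%) and 12 of 44 in positive 4 (27.3%). In negative 2, 3 and 4 it was found in 15 of 34 (44.1%), 5 of 12 (41.7%) and 3 of 10 cells (30%). All 3 negative samples lay above all 4 positive ones, with means of 13.7% ± 10.9 (SD, n = 4) and 38.6% ± 7.54 (SD, n = 3) and a two-sided exact permutation p = 0.0571 (0.0762 adjusted), which misses 0.05. The positive sample was lower in 3 of 3 pairs, with a paired exact sign-flip p = 0.25, the smallest that 3 pairs allow. The MHC class II presentation list also split by sort in T and B cells, which include B cells. It summed there to 2374, 2054, 1101 and 2707 CPM in positive 1 to 4. In negative 1 to 4 it summed to 3959, 3235, 5460 and 3464 CPM. Whether the 2 splits go together was not tested. Microglia of positive 1 to 4, with at least 19 thinned cells each, had shares of 5.26%, 4.76%, 1.59% and 2.52%, so the gate shares of positive 1 and 2 were near those of cells that carry little MHC class II. In microglia of negative 4 it was found in 2 of 17 cells (11.8%), above the microglia of every positive sample. Without thinning the gate shares were 8.19%, 5.68%, 23.8% and 24.6% in positive 1 to 4 and 55.6%, 50% and 30.8% in negative 2 to 4 (exact permutation p = 0.0286, unadjusted).

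The difference in MHC class II moved with the number of markers per cell. Among unthinned cells with exactly 3 markers, 16 of 21, 5 of 7 and 2 of 3 carried it in negative 2, 3 and 4, against 5 of 47, 11 of 79, 2 of 6 and 4 of 15 in positive 1 to 4. With 4 or more markers the counts were 4 of 15 (26.7%), 2 of 7 (28.6%) and 2 of 10 (20.0%) in negative 2 to 4, against 9 of 124 (7.26%), 15 of 379 (3.96%), 3 of 15 (20.0%) and 10 of 42 (23.8%) in positive 1 to 4, and the groups then overlapped between 20.0% and 23.8%. Over all samples MHC class II was found in 37 of 554 cells with Lyve1 detected (6.68%) and in 57 of 223 without (25.6%), at median depths of 4219 and 2908 UMIs. Positive 2 gave 374 of the cells with Lyve1 and 84 of those without. The share was lower with Lyve1 in each of the 8 samples, by little in positive 4 (24.2% against 25%) and positive 1 (6.73% against 10.4%), and on 7 cells in negative 1. Lyve1 is part of the rule, so these last shares are a description.

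**Figure D4:**
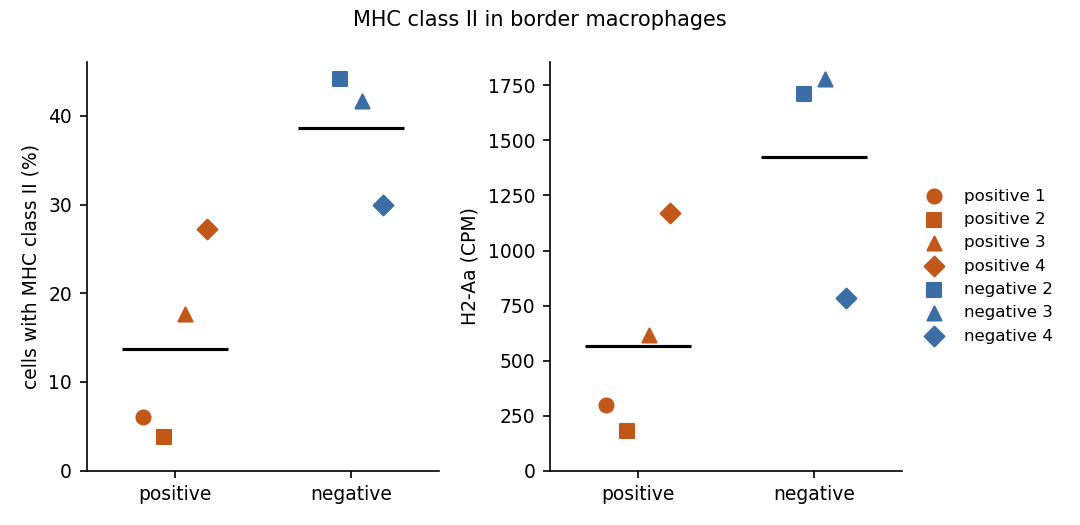
Left, share of border macrophages with MHC class II (%, cells thinned to 2000 UMIs), and right, level of H2-Aa (CPM, all gate cells), in positive 1 to 4 and negative 2 to 4; lines are group means. Shares run from 3.81% to 27.3% in the positive and from 30% to 44.1% in the negative samples, while H2-Aa overlaps.

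Gene levels were then compared between the sorts with edgeR's quasi-likelihood test on counts summed per sample, in the 4 positive samples and negative 2 to 4. Of 2715 genes outside the rule, 0 passed a Benjamini-Hochberg adjusted p of 0.05, a background of 0%, while 296 had an unadjusted p under 0.05. DESeq2 called 18 genes, 7 higher and 11 lower in the positive samples. Without negative 4 edgeR called 2 genes, both lower. The depth was uneven, from 48914 counted UMIs in negative 3 to 2187583 in positive 2. On simulated counts of this shape the test recovered 73.0% of genes changed by 4-fold.

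With the replicate number as a block, 20 of 2715 genes passed, a background of 0.737%, 6 higher and 14 lower in the positive samples. The block rests on 3 pairs, since negative 1 gave too few cells. Of the 20 genes, 9 were among the 18 of DESeq2, and 14 had groups that did not overlap, as did 322 of the 2715 (11.9%). No pathway list had more than 2 members among the 20, while the list of classical monocyte genes had 3 of its 6 tested members there, all lower.

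Vcam1, an adhesion molecule that also marks tissue-resident macrophages, was higher. It stood at 1076, 781, 689 and 842 CPM in positive 1 to 4 and at 232, 409 and 218 CPM in negative 2 to 4, so the groups did not overlap and all 3 pairs moved alike. Its log2 fold change was 1.51 ± 0.33 (SE, edgeR with the block, adjusted p = 0.047), and 1.58 ± 0.30 without the block (adjusted p = 0.128). T and B cells held 4.55 to 133 CPM. Apod, a lipid-binding lipocalin, was higher as well, at 165, 456, 126 and 59.2 CPM against 48.9, 0 and 14.5 CPM. In T and B cells Apod stood at 131, 33.1, 0 and 0 CPM in positive 1 to 4 and at most 4.30 CPM in a negative sample. Cxcl13 and Ccl5 passed with the block on few counts and with overlapping groups, so no fold is given. Cxcl13 stood at 0, 0 and 145 CPM in negative 2 to 4, and pair 2 rests on 6 UMIs against 0 at unequal depth. Ccl5 stood at 204, 75.0, 689 and 8.46 CPM in positive 1 to 4 and 0, 123 and 0 CPM in negative 2 to 4, and pair 4 rests on 2 UMIs against 0. For Cxcl13 the T and B cells of positive 3 held more than the gate of that sample, as given above, and for Ccl5 T and B cells had more RNA than the gate did, at 254 to 4746 CPM.

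Camp and Ngp, antimicrobial granule genes of neutrophil precursors, were the other 2 genes called higher. Camp stood at 2879, 534, 169 and 1294 CPM in positive 1 to 4 and at 85.6, 143 and 72.5 CPM in negative 2 to 4. T and B cells of the same samples, which should lack it, held 3018, 133, 1684 and 100 CPM of Camp in positive 1 to 4 and 118, 167 and 2877 CPM in negative 2 to 4. The gate was thus above them in positive 2 and 4 and below them in the other 5 samples. Ngp stood at 2100, 494, 211 and 753 CPM in the gate of positive 1 to 4 and at 177, 102 and 102 CPM in that of negative 2 to 4. It too was above the T and B cells of its own sample in positive 2 (157 CPM) and positive 4 (86.4 CPM) and below them in the other 5. Both changed direction when negative 1, with 7 gate cells, was let in, at log2 fold changes of -0.93 for Camp and -1.80 for Ngp.

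The genes called lower in the positive samples included several known from monocytes and neutrophils. Plac8, abundant in monocytes, stood at 129, 26.1, 42.2 and 21.1 CPM in positive 1 to 4 against 238, 1308 and 450 CPM in negative 2 to 4, a log2 fold change of -3.87 ± 0.38 (SE, edgeR with the block). In T and B cells of the same samples Plac8 stood at 1943, 99.4, 132 and 127 CPM in positive 1 to 4 and 226, 440 and 452 CPM in negative 2 to 4. The gate was thus below them in the 4 positive samples, above them in negative 3 and close to them in negative 2 and 4. Ccr2, the receptor for Ccl2 on monocytes, stood at 60.3, 6.86, 211 and 46.5 CPM against 245, 266 and 305 CPM. T and B cells held 159, 41.4, 186 and 77.3 CPM of Ccr2 in positive 1 to 4. In those 3 negative samples they held 67.2 to 131 CPM. Hp, haptoglobin, stood at 147, 101, 84.3 and 101 CPM against 428, 327 and 551 CPM, and had the lowest adjusted p without the block (0.064). Hp in T and B cells stood at 410, 33.1, 150 and 9.10 CPM in positive 1 to 4 and 292, 171 and 391 CPM in negative 2 to 4, below the gate in each of these negative samples. Neutrophil genes in this set were Mmp8, Slpi and Il1r2, the decoy receptor of interleukin 1. In the gate of negative 2 to 4 Mmp8 stood at 208, 123 and 102 CPM, below the T and B cells there (370, 132 and 170 CPM). Slpi stood at 336, 123 and 43.5 CPM, with 129, 87.9 and 230 CPM in those T and B cells. Il1r2 stood at 385, 348 and 43.5 CPM, with 408, 98.2 and 77.5 CPM in them. The neutrophil list did not run 1 way: of 6 tested members 3 had a positive log2 fold change, with a median of -0.27, and 1 was called in each direction. The remaining genes were the matrix gene Thbs1, the matrix protein gene Ecm1, the galectin Lgals3, the leukocyte actin regulators Coro1a and Lsp1, Fxyd5, the guanine deaminase Gda and H2-DMa, which loads MHC class II. Thbs1 and Ecm1 overlapped between the groups, as did Slpi and Il1r2. H2-DMa was also lower in T and B cells of the positive samples, at 108, 33.1, 53.6 and 86.4 CPM. In those of negative 2 to 4 it stood at 140, 177 and 151 CPM. Coro1a stood at 563 to 1063 CPM in T and B cells, against 147 to 207 CPM in the gate of the positive and 336 to 740 CPM in that of the negative samples. Of the classical monocyte list 6 of 6 tested members had a negative log2 fold change, with a median of -2.01 against -0.01 over all genes tested, and Plac8, Ccr2 and Hp were its 3 called with the block.

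**Figure D5:**
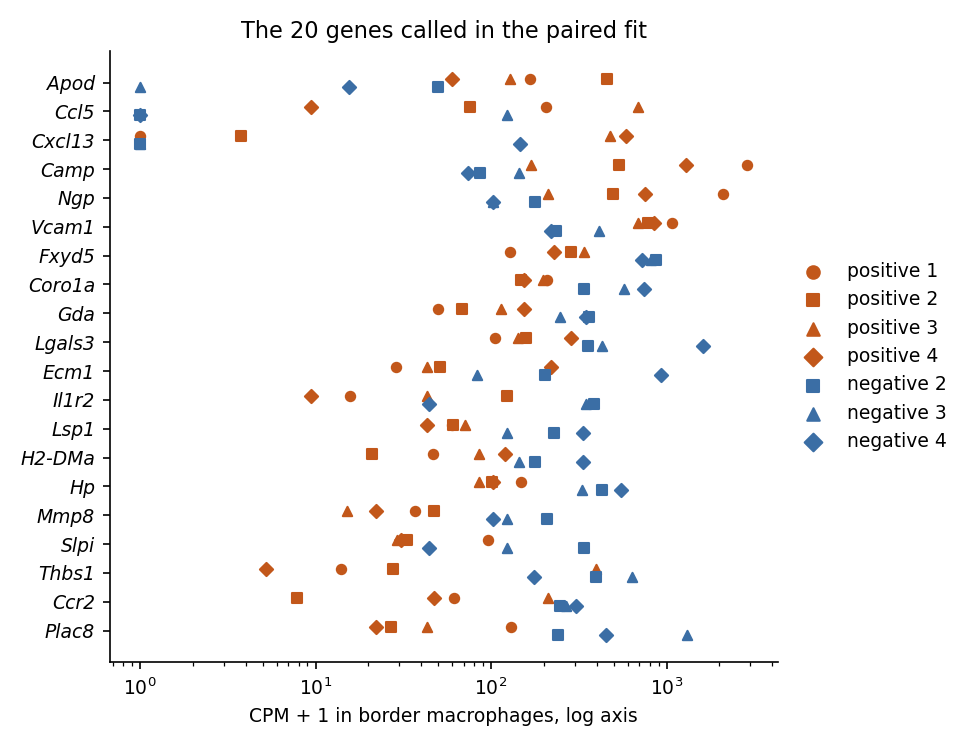
Level (CPM with 1 added, log axis) of the 20 genes called with the replicate number as a block, in border macrophages of positive 1 to 4 and negative 2 to 4, 1 point per sample. Vcam1 lies at 689 to 1076 CPM in the positive and 218 to 409 CPM in the negative samples, without overlap, while Ccl5, Cxcl13, Il1r2, Thbs1, Slpi and Ecm1 overlap between the groups.

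Genes of the border macrophage list mostly had positive fold changes without passing the test. Of the 20 tested genes of the border macrophage list 16 had a positive log2 fold change, with a median of 0.93 against -0.01 over all genes, and 0 were called. Stab1 stood at 1069, 706, 717 and 681 CPM against 312, 388 and 290 CPM in negative 2 to 4 (log2 fold change 1.25 ± 0.26, edgeR adjusted p = 0.154). Maf differed by 1.14 ± 0.28 and F13a1 by 0.78 ± 0.25 on the log2 scale, with adjusted p-values of 0.186 and 0.288.

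Leaving out cells at the threshold of 3 markers also changed the samples. Negative 3 then had 7 gate cells, under the minimum of 10, so the fit at 4 or more markers rests on negative 2 and 4. It is set here beside the fit at 3 or more markers without negative 3, which holds the same 6 samples, and beside a fit at 4 or more markers in all 7 samples, added after seeing the data, which tested 763 genes. The border macrophage list had medians of 1.03 at 3 or more markers and 0.52 at 4 or more in the 6 samples, and 0.36 over 15 genes at 4 or more in the 7. Maf had log2 fold changes of 0.89, 0.30 and 0.63 in the same 3 fits, and F13a1 0.58, 0.10 and 0.36. H2-DMa had -2.15 ± 0.65 and 0.47 ± 1.47 (SE, edgeR) in the 6 samples and was not tested in the 7 at 4 or more markers. The neutrophil list had medians of -0.12 over 6 genes and 2.62 over 4 in the 6 samples, and 1.20 over 4 in the 7. With 4 or more markers edgeR called 0 genes in the 6 samples, where 135 had an unadjusted p under 0.05, and 0 in the 7, where 50 did.

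The other lists gave 0 calls without the block and are described by their median log2 fold change, positive minus negative. MHC class II presentation had -1.17 over 8 tested genes. In the 6 samples without negative 3 it had -0.99 at 3 or more markers and 0.42 over 7 genes at 4 or more, and in the 7 samples at 4 or more markers -0.01 over 6 genes, so the median changed sign with the marker threshold in the 6 samples and lay near 0 in the 7. Glycolysis and hypoxia had -0.63, with -0.60 and 0.14 in the 6 samples, and NF-kB and TNF inflammation -0.63, with -0.57 and -0.20. In the 7 samples at 4 or more markers these 2 lists had -0.14 over 2 genes and -0.61 over 7. Scavenger and endocytic receptors had 0.82, with 0.89 and 0.55 in the 6 samples and 0.39 over 7 genes in the 7. The other microglia genes had 0.57 over 9 tested genes, and few members could be tested of the cell cycle list (0.59 over 2), the interferon-stimulated list (-0.40 over 3) and the oestrogen and steroid receptor list (0.28 over 6). Complement (0.31), lysosome and cathepsin (0.27), iron and haem (0.27), efferocytosis (0.18), lipid-associated macrophage genes (0.12), checkpoint and regulatory genes (0.09), macrophage transcription factors (-0.06), MHC class I (-0.07), growth and matrix factors (-0.10), Fc receptors (-0.10), immediate early and heat shock genes (-0.15) and chemokines (-0.17) lay closer to the -0.01 of all genes. Without negative 3 the medians of chemokines and of immediate early and heat shock genes turned to 0.40 and 0.21.

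Whether the biotin sort differed in another way in border macrophages than in microglia was tested as an interaction, in samples with at least 5 cells of each class (positive 1 to 4 and negative 2 to 4). Of 2757 genes 3 passed, a background of 0.109%. Ltf and Wfdc21, genes of neutrophil granules, had log2 differences of 7.84 ± 1.26 and 4.09 ± 0.66 (edgeR adjusted p = 0.044 for both). Ltf stood at 55.0, 40.9 and 0 CPM in the gate of negative 2 to 4, while the 5 microglia of negative 2 held 2564 CPM. Neutrophil genes summed to 150231 CPM in those 5 cells, above the 142057 CPM of the gate cells of negative 1, against 1220 to 22393 CPM in microglia of the other 7 samples, and classical monocyte genes to 8055 CPM. Without negative 2 the difference of Ltf was 3.64 ± 2.65 (edgeR adjusted p = 0.792) and that of Wfdc21 3.30 ± 0.58 (adjusted p = 0.022). Without doublet candidates that of Ltf was 2.34 ± 2.21 (edgeR adjusted p = 0.869). Lpl, lipoprotein lipase, had a difference of -7.89 ± 1.37 (edgeR adjusted p = 0.046), and its level in the gate was 1871 CPM in negative 4 and at most 51.7 CPM in the other 7 samples. Without negative 4 it was -1.55 ± 3.01 (edgeR adjusted p = 0.930). DESeq2 called 4 genes, Wfdc21 among them, and gave Ltf and Lpl adjusted p-values of 0.087 and 0.530. With edgeR the count was 0 without positive 1 or without positive 4, 1 without positive 2, 5 without negative 2, 8 without negative 3 and 15 without negative 4.

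The same rule also caught cells outside the brain, so the 6 markers are not particular to it. It caught 182 of 15997 kept cells in bone, 834 of 11778 in liver and 470 of 17926 in lung. In bone they made up 2.39%, 11.5%, 0% and 0.116% of positive 1 to 4 and at most 0.428% of a negative sample. In liver the shares were 7.21%, 61.7%, 4.31% and 0% in positive 1 to 4, where positive 4 had 94 kept cells, and at most 2.41% in a negative sample. In lung they were 7.16%, 7.88%, 0.575% and 2.95%, and at most 0.675%. The positive sample was the higher in 3 of 4 same-numbered pairs in bone and liver and in 4 of 4 in lung. Sample number 2 held 639 of the 759 positive liver cells and 118 of the 167 of bone, and without it the share over all positive cells fell from 24.5% to 5.83% in liver and from 3.70% to 1.40% in bone.

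Cells caught in liver carried genes of Kupffer cells, the liver's resident macrophages. In the positive samples with at least 10 such cells, Cd5l and Clec4f, Kupffer cell genes, averaged 2090 and 1855 CPM in liver (n = 3), and 5.61 and 13.8 CPM in brain (n = 4). The brain gate was not free of them in number 2. Cd5l and Clec4f stood at 19.2 and 41.1 CPM in brain positive 2 and at 85.6 and 116 CPM in brain negative 2. Brain negative 3 and 4 had 0 of both. Fabp4 and Ear2, known from alveolar macrophages, were not highest in lung, at 59.3 and 213 CPM against 112 and 225 CPM in liver. Apoe averaged 37201 ± 4792 CPM (SD, n = 4) in brain, 13729 CPM in liver (n = 3), 7013 CPM in lung (n = 3) and 5264 CPM in bone (n = 2). Lyve1, although a marker of the rule, averaged 988 CPM in brain and 154, 83.9 and 77.9 CPM in bone, liver and lung. Cd209f averaged 206 ± 176 CPM (SD, n = 4) in brain, at 43.9 CPM or more in each sample, and 19.4, 1.28 and 1.78 CPM in bone, liver and lung. Vcam1 stood at 1366 and 5710 CPM in the 2 bone samples and averaged 847 ± 165 CPM (SD, n = 4) in brain. The haem oxygenase gene Hmox1 stood at 1111 and 5385 CPM in bone and averaged 305 ± 262 CPM (SD, n = 4) in brain. These tissue values are descriptions, since the marker levels that chose the cells differed between tissues as well.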

How the data were processed

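The data were single-cell RNA-seq of sorted mouse brain cells, multiplexed with CellPlex per the labels. The deposited values were raw UMI counts, 1 matrix of genes by barcodes per sample, written by cellranger 6.1.2 per the file headers. The submitters' processing notes name mm10, Cell Ranger and Seurat. No source used here names the annotation. The matrices listed 32285 genes.

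The thresholds for keeping a cell were 500 UMIs, 200 genes and no more than 15% of UMIs from mitochondrial genes. Kept brain cells per sample ranged from 310 to 2857, with median depths of 3699 to 7214 UMIs. Doublets stayed in the reported values, and 1 alternative dropped the top 5% of Scrublet scores per sample (scanpy 1.11.5). The 8 brain samples shared 14 barcodes over 28 pairs, none of them between samples of the same number. The border macrophage rule was applied as given above. The members and all gene lists were chosen with earlier results of these data known. A rule for classical monocytes passed 1412 of 2857 cells in negative 4, neutrophils and lymphocytes among them, so the planned comparison with monocytes was left out.

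Counts were summed per sample and tested with edgeR 4.0.16 (TMM, filterByExpr, quasi-likelihood test, Benjamini-Hochberg adjusted p under 0.05), with DESeq2 1.42.0 as an alternative (R 4.3.3). A minimum of 10 cells per sample was used. The interaction could not be fitted at that minimum and used 5. The 11 genes of the rule were fitted and not counted. In simulated data the test recovered 73.0% of 4-fold and 82.0% of 16-fold changes, and called 0.238% of unchanged genes. These data had 1 dispersion for all genes and, apart from the changed genes, the same gene proportions in every sample. Shares were compared by exact permutation (scipy 1.17.1). Levels are CPM of summed counts. Promoters were searched with 1 start per gene.

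The replicate numbers were taken to pair the samples. Deviations of same-numbered samples correlated at 0.335, 0.134 and 0.157 over genes, all above 0.1, though positive 1 and negative 4, of different numbers, correlated at 0.209. No barcode was shared within a number over 112 pairs of samples, against 341 over 384 pairs of different numbers. Named genes were the 11 of the rule, all genes called in a comparison, up to 4 members with the highest level per list, and the 12 genes with the largest median ratio to microglia in each direction above 100 CPM and on the same side in all samples. Some genes that this rule names are not reported here.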

Additional observations from a re-analysis of the deposited data

Results flagged for a closer look

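Of 84 groups of 4 values tested by Dixon's criterion, 10 held a sample far from the other 3, where chance gives about 1 in 20. In positive 1, Maf (3355 CPM against 2355 to 2398 CPM) and Stab1 (1069 against 681 to 717 CPM) were high, and Fos was low (1223 against 5522 to 6407 CPM). In positive 2, Spp1 (1077 against 12.7 to 108 CPM) and Fcer1g (2864 against 2461 to 2515 CPM) were high. Negative 2, outside these groups, held 740 CPM of Spp1. In positive 3, which had 21 gate cells, Ctss (1897 against 1025 to 1057 CPM), Zeb2 (1152 against 704 to 744 CPM) and Gapdh (393 against 317 to 330 CPM) were high, and Fth1 was low (5803 against 7781 to 7940 CPM). In positive 4, Pkm was low (76.1 against 134 to 142 CPM).

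In the reported fit the biotin sort went with different changes in border macrophages and microglia for 3 genes, tested as an interaction. Each of the 3 missed the threshold in some alternatives. Ltf and Lpl did so as given above. Wfdc21 had edgeR adjusted p-values of 0.750 with 4 or more markers and 0.291 without positive 1. The log2 differences were 7.84 for Ltf, 4.09 for Wfdc21 and -7.89 for Lpl. For Ltf the gate held 9, 2 and 0 UMIs in negative 2 to 4, and microglia 92 UMIs in the 5 cells of negative 2. For Wfdc21 the gate held 96, 12 and 9 UMIs in negative 2 to 4, and those 5 microglia 151 UMIs. For Lpl the gate held 129 UMIs in the 13 cells of negative 4. The cause was not tested.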

How the results depend on the processing

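The higher share of border macrophages in the positive samples kept its direction in all alternatives run. The difference ranged from 14.3 to 34.6 percentage points when 1 sample was left out. With 1 negative sample left out the exact p was 0.171, where groups of unequal size let other assignments exceed the observed difference. With the replicate block the border macrophage difference was 27.4 and the microglia difference 17.0 percentage points (exact sign-flip p = 0.125 for both), and without 1 sample the latter ranged from 8.65 to 21.8. The share of border macrophages among both classes ranged from -23.6 to 2.67 points, reversing without positive 4. The MHC class II difference was -29.9 points without thinning, past 0.05, and -29.4 to -21.6 points with 1 sample left out. At 4 or more markers it could not be tested with 10 cells of 2000 UMIs per sample.

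The count of genes called between the sorts, 0 with edgeR, was 18 with DESeq2, 20 with the replicate block, 132 without the low-count filter, 3 and 1 with minimums of 5 and 20 cells, and 0 to 2 with 1 sample left out. Chosen after seeing the data, leaving out cells with T or B cell genes gave 1 and leaving out both samples of number 2 gave 0, as did 4 or more markers in the same 7 samples. The interaction gave 3, 4 with DESeq2, which lost Ltf and Lpl, 31 without the filter, 0 with 4 or more markers (120 at an unadjusted p under 0.05), and 0 to 15 with 1 sample left out. Of 337 alternative values for the 20 genes of the paired fit 3 changed sign, Camp at -0.93 and Ngp at -1.80 with a minimum of 5 cells, and H2-DMa at 0.47 with 4 or more markers, a fit that also lost negative 3. Another 51 passed the threshold that the unpaired edgeR values missed. The negative samples held 70 gate cells in all. On simulated counts with 1 dispersion for all genes 73.0% of 4-fold changes were recovered, and the recovery in the real samples is not known.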

Other observations

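The transcription factor gene Mef2c stood at 690, 414, 731 and 482 CPM in positive 1 to 4, and the neonatal Fc receptor Fcgrt at 424, 521, 436 and 389 CPM. The growth factor Igf1 stood at 254, 155, 309 and 266 CPM in positive 1 to 4 and at 24.5, 102 and 174 CPM in negative 2 to 4, with overlap. The fibronectin gene Fn1 stood at 21.2, 27.0, 309 and 4.23 CPM and at 532, 245 and 2074 CPM, where negative 4 had the highest value of Fn1 as of Lpl. The checkpoint ligand gene Cd274 was at most 9.78 CPM in any of these 7 samples, and the regulator gene Vsir stood at 316, 287, 225 and 313 CPM in positive 1 to 4. Il10 stood at 0, 21.9, 126 and 4.23 CPM.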
